A study of Mus musculus with 6 samples.

Results

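Enzymes that cross-link the extracellular matrix were examined in RNA sequencing data of immortalized mouse podocytes, the epithelial cells that cover the glomerular capillary and lay down its basement membrane together with the endothelium. The 7 genes were the 5 lysyl oxidases Lox, Loxl1, Loxl2, Loxl3 and Loxl4, peroxidasin (Pxdn) and transglutaminase 2 (Tgm2). They were chosen by name from the 57132 identifiers of the count table, and all 7 were among the 16263 genes with enough counts to be tested. The study compared 3 samples of wildtype podocytes (WT, line IMWT, Col4a3+/+) with 3 samples of Alport syndrome podocytes (AS, line IMAS, Col4a3-/-), a model of the kidney disease caused by defects in the type IV collagen chains α3, α4 and α5. Both lines came from the kidney of male mice of 8 weeks and were untreated. Both also carried the H-2Kb-tsA58 transgene, a temperature-sensitive large T antigen under an interferon-inducible promoter, brought in by crossing Col4a3 knockout mice with a CBA/Ca and C57BL/10 transgenic strain. According to the labels, cells were kept at 33 °C with 20 U/mL interferon gamma and then differentiated at 37 °C for 14 days, while the study's methods describe another medium, less interferon gamma and a shorter differentiation. Each genotype was a single line, so genotype and line cannot be told apart here. The sources do not say whether the 3 sets of a line were separate cultures, so p-values measure only the spread between these samples, which may be technical.

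Collagen and elastin fibres gain strength from covalent bonds made outside the cell. Lysyl oxidases are secreted copper enzymes that turn lysine and hydroxylysine side chains into reactive aldehydes, which then condense into cross-links. Lox and Loxl1 are made as proenzymes and act mainly on fibrillar collagen and elastin, whereas Loxl2, Loxl3 and Loxl4 carry scavenger receptor domains, and Loxl2 is known to cross-link the 7S domain of type IV collagen. Peroxidasin is a heme peroxidase that forms the sulfilimine bond between the NC1 domains of neighbouring type IV collagen molecules. Transglutaminase 2 is a calcium-dependent enzyme that joins glutamine to lysine residues in fibronectin and other matrix proteins, and it also binds fibronectin and integrins at the cell surface. In the glomerular basement membrane the network to be cross-linked consists of α1 and α2 chains and, in the mature membrane, of α3, α4 and α5 chains.

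The lysyl oxidases share a catalytic domain with a histidine-rich segment that binds copper. The coding stretch around this segment is shown for 4 of them, because copper binding is what these enzymes have in common. The stretch shows how alike the transcripts are in this shared segment, not over their whole length. Each stretch was read 5′ to 3′ on the coding strand of a GENCODE M21 transcript (GRCm38, genes on chromosomes 9, 14, 6 and 19 in the order shown), spans 84 bases or 28 codons, and has the 4 histidine codons of the segment in capitals.
Loxl1: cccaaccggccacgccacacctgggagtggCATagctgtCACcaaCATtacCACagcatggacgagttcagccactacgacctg
Loxl2: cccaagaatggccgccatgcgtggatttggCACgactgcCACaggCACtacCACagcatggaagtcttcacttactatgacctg
Loxl3: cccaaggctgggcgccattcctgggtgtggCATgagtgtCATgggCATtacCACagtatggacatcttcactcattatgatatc
Loxl4: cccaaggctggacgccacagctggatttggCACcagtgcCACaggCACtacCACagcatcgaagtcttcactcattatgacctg
Loxl2 and Loxl4 were identical at 85.7% of these bases, Loxl3 and Loxl4 at 77.4% and Loxl2 and Loxl3 at 75.0%. Loxl1 matched these 3 genes at 66.7% to 67.9% of the bases and matched Lox, whose stretch is not printed, at 88.1%. The longest run of identical bases between whole transcripts of any 2 of the 7 genes was 32 bases, between Lox and Loxl1. Loxl2 shared at most 28 bases with another of the 7 genes, namely with Loxl1. The sources used here do not state how the authors counted reads that match several genes.

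The libraries held 45417221 to 54290968 counts, and mitochondrial genes took 0.882% to 1.68% of the counts in WT and 1.30% to 2.02% in AS. Col4a3, the deleted gene, gave 938, 1052 and 1272 CPM (counts scaled to the library size, per 1e6) in WT and 62.4, 61.2 and 82.9 CPM in AS, low in every sample labelled Col4a3-/- (log2 fold change -3.98, SE 0.15, adjusted p = 1.31e-07). Among the podocyte markers, Tcf21 had no count in any sample, and nephrin (Nphs1) was at 0.455 to 0.473 CPM in WT and at 0 to 0.0778 CPM in AS, so the label podocyte rests on other genes. Synpo (synaptopodin) lay at 758 to 847 CPM in WT and 497 to 558 CPM in AS, Cd2ap at 125 to 138 and 106 to 109 CPM, and Wt1 at 15.3 to 25.8 and 1.44 to 3.14 CPM. The podocyte list summed to 919 to 1036 CPM in WT and 629 to 689 CPM in AS, with 2 of its 7 tested genes higher and 5 lower in AS. The 5 fibroblast markers summed to 2.24 to 3.12 CPM in WT and 2.63 to 3.42 CPM in AS, with Lum at 0 in all samples. Within this list, Dcn (decorin) was higher in AS (0.538 and 2.35 CPM, edgeR adjusted p = 0.00513). Thy1 was lower (1.19 and 0.0666 CPM, edgeR adjusted p = 0.00326), so the close sums hold opposite changes. Both rest on few reads, with 14, 16 and 46 reads of Dcn in WT and 0, 0 and 11 reads of Thy1 in AS. The leukocyte markers summed to at most 3.14 CPM in any sample, with Adgre1 and Cd3e at 0. The mesangial list moved with genotype, at 248 to 276 CPM in WT and 124 to 126 CPM in AS, nearly all of it Pdgfrb. The endothelial list, mostly Ehd3, summed to 44.7 to 52.4 CPM in WT and 38.0 to 43.0 CPM in AS, and the parietal epithelial list, mostly Pax8 and Pax2, to 380 to 467 and 326 to 349 CPM. Tubule markers, nearly all Lrp2, overlapped between the groups at 247 to 308 and 197 to 307 CPM, with Umod and Aqp2 at 0. The part of these shifts in the results below was not tested. In RNA from whole cultures, fewer cells that express a gene and less RNA per cell cannot be told apart. WT replicate 1 stood apart from the other 2 WT samples, with a chi-square per degree of freedom over genes of 47.7 and 50.0 against 9.83 between WT replicates 2 and 3 and 18.8 to 22.6 between AS samples. It had the lowest WT level of Lox, Loxl2, Loxl3, Loxl4 and Tgm2 and the highest of Loxl1 and Pxdn, so values without it are given below.

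Of the 7 cross-linking enzymes, 5 passed the quasi-likelihood test of edgeR (adjusted p under 0.05) in the comparison of AS with WT podocytes. Loxl2 and Loxl4 were higher in AS, Lox, Loxl3 and Tgm2 were lower, and Loxl1 and Pxdn did not pass the test. Over all genes tested, 40.1% passed it, 20.4% as higher and 19.6% as lower in AS, so the share of the 7 genes called has to be read against a high background. The levels of the 2 groups did not overlap for 4 of the 7 genes, namely Lox, Loxl2, Loxl3 and Tgm2, against 52.3% of all genes tested. A difference over 2-fold was found for Loxl2 and Tgm2, and 11.2% of all genes tested had a called difference of that size. The median absolute log2 fold change was 0.52 over the 7 genes and 0.28 over all genes tested, while the signed medians were both 0.01.

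**Figure D1:**
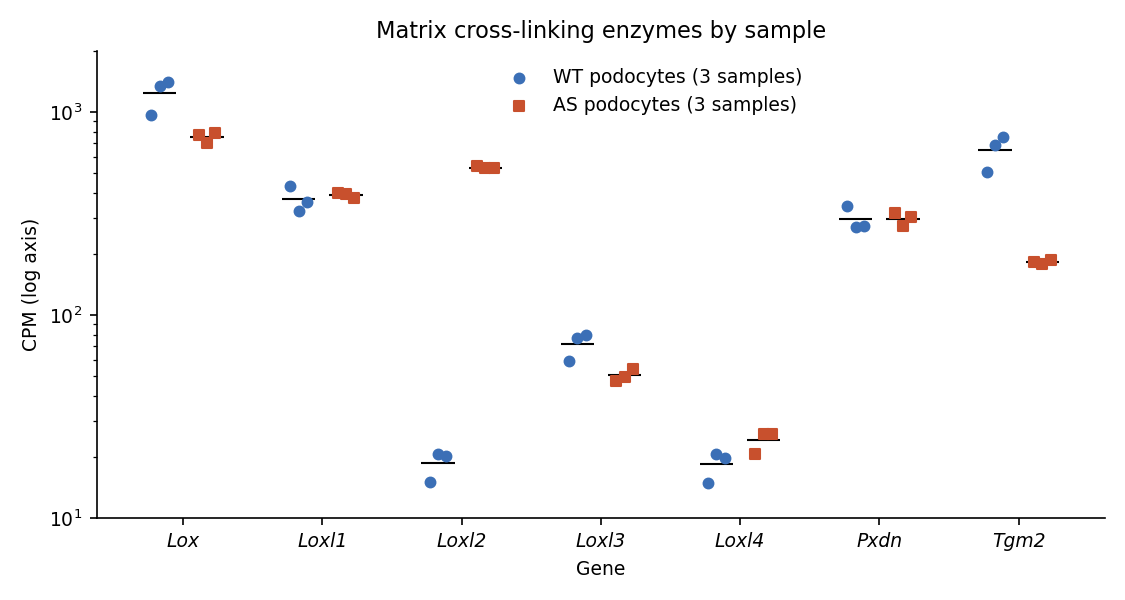
Level of each cross-linking enzyme in CPM on a log axis, with 1 point for each of the 3 WT and 3 AS samples and a line at the group mean. Loxl2 rises from between 15.0 and 20.6 CPM in WT to between 526 and 539 CPM in AS, Tgm2, Lox and Loxl3 lie lower in every AS sample, and the points of Loxl1, Loxl4 and Pxdn overlap.

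Loxl2, the lysyl oxidase known to act on type IV collagen, gave the largest difference of the 7 genes (ENSMUSG00000034205.17, chromosome 14). Its level was 15.0, 20.6 and 20.2 CPM in WT replicates 1 to 3 and 539, 528 and 526 CPM in AS replicates 1 to 3. Every AS sample was far above every WT sample, and the AS samples differed little among themselves. The means were 18.6 ± 3.15 CPM in WT and 531 ± 6.83 CPM in AS (SD, n = 3), a 28.5-fold difference (log2 fold change 4.83, SE 0.12, 95% interval 4.56 to 5.11, edgeR adjusted p = 9.49e-09). The WT level was not near the limit of detection, since it rested on 760 to 966 reads per sample, against 24272 to 28959 reads in AS. Of the 16263 genes tested, 49 rose more and 14 had a smaller p. Among the 12912 genes with a mean of at least 1 CPM, 32 rose more. Without WT replicate 1 the log2 fold change was 4.70, and over all alternatives it lay between 4.70 and 4.91. The summed fibroblast markers reached at most 3.42 CPM in any sample, with Dcn higher and Thy1 lower in AS as given above, and their part in the rise of Loxl2 was not tested.

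Lox, the founding member of the family and an enzyme of fibrillar collagen and elastin, was the most abundant lysyl oxidase by CPM in both lines and was lower in AS (ENSMUSG00000024529.15, chromosome 18). WT replicates gave 967, 1348 and 1405 CPM and AS replicates 770.1, 704 and 785 CPM. The lowest WT sample was still above the highest AS sample. The AS mean of 753 ± 43.0 CPM was 0.607 times the WT mean of 1240.0 ± 238 CPM (log2 fold change -0.72, SE 0.13, 95% interval -1.01 to -0.43, adjusted p = 0.00176). Without WT replicate 1, the lowest of the WT samples, the log2 fold change was -0.87.

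Loxl3, a scavenger receptor member known for its part in palate and spine development, moved in the same direction (ENSMUSG00000000693.11, chromosome 6). Its levels were 59.4, 76.8 and 79.7 CPM in WT and 47.2, 49.3 and 54.4 CPM in AS, so that the groups were separate but close at WT replicate 1. The means were 72.0 ± 11.0 and 50.3 ± 3.68 CPM, or 0.699 times WT (log2 fold change -0.52, SE 0.11, 95% interval -0.76 to -0.28, adjusted p = 0.00424). Genes on chromosome 6 as a whole had a median log2 fold change of -0.20. With that median removed, Loxl3 was still called, at -0.32 and an adjusted p of 0.0473. Without WT replicate 1 its log2 fold change was -0.64.

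Loxl4, the family member closest to Loxl2 in the copper-binding stretch shown above, was called higher by a small margin (ENSMUSG00000025185.15, chromosome 19). WT samples gave 14.8, 20.7 and 19.6 CPM and AS samples 20.6, 25.8 and 25.8 CPM. AS replicate 1 lay just below WT replicate 2, so the groups overlapped. The means were 18.4 ± 3.14 and 24.1 ± 3.01 CPM, a 1.31-fold difference (log2 fold change 0.39, SE 0.13, 95% interval 0.09 to 0.69, adjusted p = 0.0442). The call was lost in 6 of 14 alternatives, among them leaving out WT replicate 1 (0.25, adjusted p = 0.0772) and removing the chromosome 19 median of 0.19 (0.20, adjusted p = 0.294). At 752 to 1422 reads per sample, counting error was small beside the spread between samples.

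Loxl1, which is known for elastic fibre upkeep, was not called (ENSMUSG00000032334.11, chromosome 9). Its level was 431, 325 and 358 CPM in WT and 399.9, 393 and 375 CPM in AS. All AS values lay inside the range of the WT values. The means of 371 ± 54.3 and 389 ± 12.7 CPM gave a log2 fold change of 0.07 (SE 0.10, 95% interval -0.15 to 0.28, adjusted p = 0.616). The call depended on WT replicate 1, the highest WT sample. Without it Loxl1 was called higher in AS, at 0.19 on the log2 scale with an adjusted p of 0.0303, and without WT replicate 2 the value was -0.022.

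Tgm2, the glutamine-lysine cross-linker, was the second of the 7 genes to change by more than 2-fold, and it fell (ENSMUSG00000037820.16, chromosome 2). WT replicates gave 505, 687 and 753 CPM, and AS replicates gave 182, 177 and 186 CPM. Each AS sample was well below the lowest WT sample, and the AS samples were close together. The means were 648 ± 128 CPM in WT and 182 ± 4.41 CPM in AS, a level 0.281 times that of WT (log2 fold change -1.83, SE 0.13, 95% interval -2.12 to -1.54, adjusted p = 6.35e-06). Of the 16263 genes tested, 528 fell more. Without WT replicate 1 the log2 fold change was -1.98, and over all alternatives it lay between -1.98 and -1.71.

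Pxdn, which forms the sulfilimine bond of type IV collagen, had nearly equal means in the 2 lines (ENSMUSG00000020674.18, chromosome 12). The samples gave 345, 269.8 and 275 CPM in WT and 316, 274 and 304 CPM in AS. The ranges overlapped, with WT replicate 1 highest of all 6 samples. The means were 296 ± 41.9 and 298 ± 21.4 CPM (log2 fold change 0.01, SE 0.10, 95% interval -0.21 to 0.23, adjusted p = 0.957). The sign changed with the scaling and with the samples left out, between -0.057 and 0.13, and none of the 14 alternatives called the gene.

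**Figure D2:**
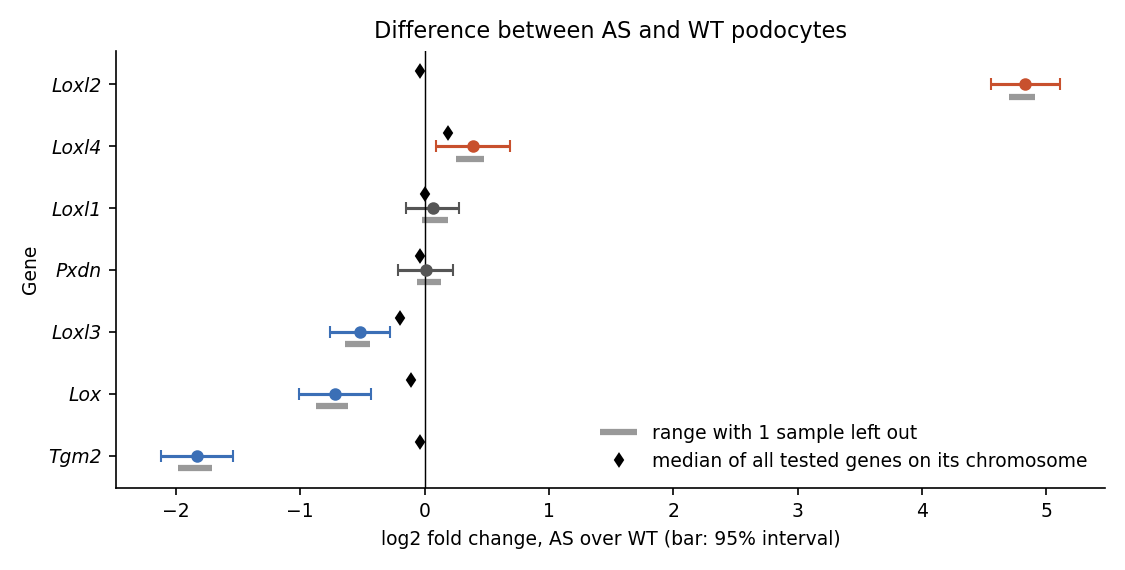
Log2 fold change of AS over WT for each gene, with its 95% interval from edgeR, a grey bar for the range of values with 1 sample left out in turn and a diamond for the median of all tested genes on the same chromosome. The interval of Loxl2, 4.56 to 5.11, and that of Tgm2, -2.12 to -1.54, lie far from 0, while those of Loxl1 and Pxdn span it.

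To compare levels between genes, CPM were divided by the length of the longest annotated transcript in kb. On this scale Lox led the WT samples at 262 ± 50.2 CPM per kb, followed by Tgm2 at 180 ± 35.6, and the ranges of these 2 genes overlapped. Loxl1 came next at 113 ± 16.5 CPM per kb, then Pxdn at 44.8 ± 6.33, Loxl3 at 17.6 ± 2.69, Loxl4 at 4.92 ± 0.841 and Loxl2 at 3.50 ± 0.593, and below Tgm2 no neighbours in this order overlapped. Loxl2 was thus the lowest of the 7 genes in WT. In AS it was the third, at 99.9 ± 1.29 CPM per kb, after Lox at 159 ± 9.06 and Loxl1 at 118 ± 3.86. Tgm2 followed at 50.6 ± 1.23, Pxdn at 45.1 ± 3.24, Loxl3 at 12.3 ± 0.897 and Loxl4 at 6.44 ± 0.806 CPM per kb, and no neighbours overlapped. Parts of the order rested on the transcript length. With the mean length over all annotated transcripts of a gene, Tgm2 reached 394 CPM per kb and stood above Lox in WT, and in AS Loxl2 reached 127, above Loxl1, and Tgm2 reached 111. Values for Pxdn rose to 90.4 in WT and 90.9 in AS, those of Loxl3 to 39.8 and 27.8, and those of Loxl4 to 9.32 and 12.2, while Loxl2 in WT was at 4.46 CPM per kb.

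The make-up of the summed lysyl oxidase transcripts differed between the lines, while the means of the sum were close. Their summed level was 356, 411 and 433 CPM per kb in WT and 402, 386 and 399 CPM per kb in AS. It used the longest transcript of each gene, and other lengths would change both this sum and the shares below. The ratio of the means was 0.988, and the AS values lay inside the WT range only because of WT replicate 1. Without it every AS value was below both WT values and the ratio was 0.937, a value computed after seeing the data. With 3 against 3 samples the exact permutation test cannot pass 0.05, so it says nothing about whether the sum was stable. Within this sum Loxl2 took 0.792%, 0.944% and 0.879% in WT replicates 1 to 3, against 25.2%, 25.7% and 24.8% in AS replicates 1 to 3. Lox took 57.3%, 69.2% and 68.4% in WT and 40.4%, 38.5% and 41.6% in AS. A gain of 24.4 percentage points for Loxl2 therefore stood beside a loss of 24.8 points for Lox, and shares of 1 sum are not independent of each other. The share of Loxl3 went from 4.37 ± 0.265% to 3.10 ± 0.232% and that of Loxl4 from 1.23 ± 0.118% to 1.63 ± 0.227%. Loxl1 overlapped, at 28.6 ± 7.07% in WT and 29.9 ± 1.18% in AS (exact p = 0.9). The other 4 shares were separate between the groups with an exact permutation p of 0.1, the smallest that 3 against 3 samples allow, and 0.125 after adjustment over the 5 shares, so none could pass 0.05.

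**Figure D3:**
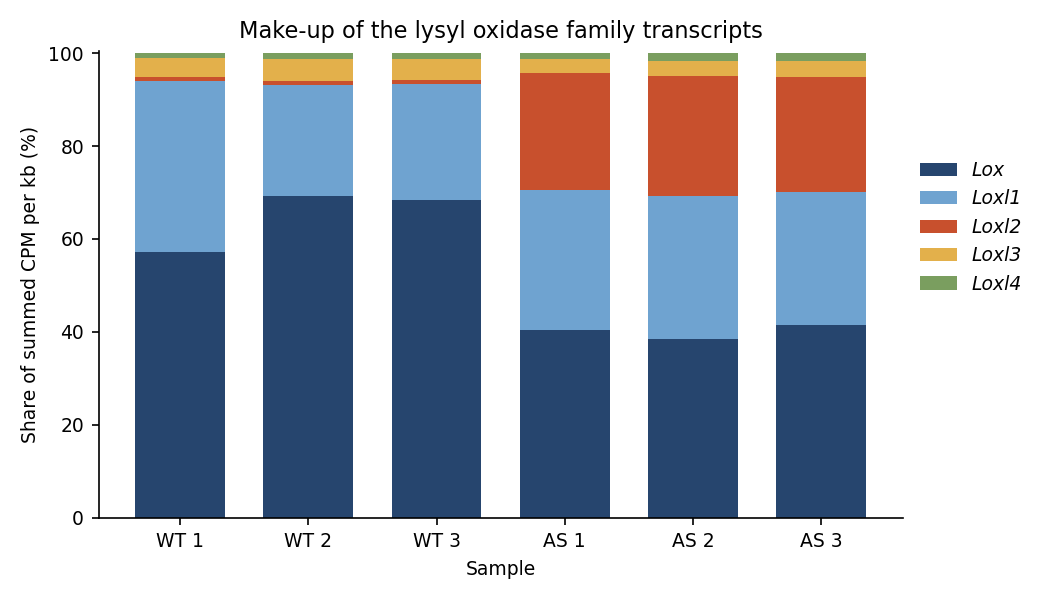
Share of each lysyl oxidase in the summed CPM per kb of the 5 genes, in %, as 1 stacked bar for each sample. Loxl2 is a thin band under 1% in the 3 WT bars and 24.8% to 25.7% of each AS bar, while the Lox segment is shorter in the AS bars.

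Each enzyme was also set against Col4a1 plus Col4a2, the chains of the ubiquitous type IV collagen network, within the same sample. The log2 ratio of Loxl2 to these chains was -9.03, -8.17 and -8.04 in WT and -3.77, -3.58 and -3.61 in AS, a difference of 4.76. The ratio of Tgm2 fell by 1.90 on the log2 scale and that of Lox by 0.79, both without overlap. The ratios of Loxl3 (-0.597) and Loxl4 (0.306) overlapped between the groups, as did those of Loxl1 (-0.0113) and Pxdn (-0.0736). The exact permutation p was 0.1 for Lox, Loxl2 and Tgm2, the smallest possible, and 0.233 after adjustment over the 7 ratios. WT replicate 1 had the highest Col4a1 and Col4a2, at 4833 and 3017 CPM against 3292 to 3709 and 2023 to 2248 CPM in the other WT samples. Without it the difference in log2 ratio was 4.45 for Loxl2, -2.23 for Tgm2 and -1.12 for Lox. The overlap of Loxl3 also came from WT replicate 1, at -7.05 against -6.28 and -6.06 in the other WT samples and -7.28 to -6.89 in AS, and without it the difference was -0.890. For Loxl4 the difference without it was -0.0020.

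Of the 6 chains of type IV collagen, the collagen on which Loxl2 and Pxdn act, 1 was called higher and 3 lower in AS. Counts for this and the following lists are to be read against all genes tested, of which 20.4% were called higher and 19.6% lower. Col4a3 was at 0.0633 times its WT level, as given above. Col4a4, whose product assembles with the α3 chain, was at 605 ± 47.0 CPM in WT and 452 ± 43.0 CPM in AS (log2 fold change -0.42, adjusted p = 0.00390). Col4a5, the X-linked partner of both, was higher, at 950.5 ± 60.4 and 1179 ± 38.7 CPM (0.31, adjusted p = 0.00603). Col4a6 was low in both lines and was called lower by a small margin (7.87 ± 0.573 and 6.13 ± 0.617 CPM, -0.36, adjusted p = 0.0463), a call that was lost in 9 alternatives. Col4a1 had a log2 fold change of -0.06 (adjusted p = 0.765) and Col4a2 one of 0.26 (adjusted p = 0.163). Without WT replicate 1 the values were 0.11 and 0.45, and Col4a2 was then called higher (adjusted p = 0.000893).

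Fibrillar collagens and elastin, substrates of Lox and Loxl1, were listed together with microfibril genes. This list moved in both directions, with 4 of 14 tested genes higher and 3 lower in AS. Col3a1 rose from 9.44 ± 1.58 to 198 ± 32.9 CPM (log2 fold change 4.39, adjusted p = 6.15e-08). Col1a1, which codes for the α1 chain of type I collagen, rose from 24.3 ± 4.15 to 477 ± 99.1 CPM (4.29, adjusted p = 1.87e-07). Its partner chain Col1a2 fell from 30.6 ± 7.12 to 0.999 ± 0.299 CPM (-4.92, adjusted p = 5.14e-07). Col5a2, a chain of the type V collagen that nucleates fibrils, fell from 2155 ± 485 to 239.8 ± 18.2 CPM (-3.17, adjusted p = 7.31e-07). The list thus held opposite changes in the 2 chains of type I collagen, and the median log2 fold change of its 14 genes was 0.30 against 0.01 over all genes tested.

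The genes that mature lysyl oxidases, supply their copper or hold them on the matrix were also split, with 4 of 12 tested genes higher and 4 lower, against 20.4% and 19.6% of all genes tested. Pcolce, an enhancer of procollagen C-proteinase, rose from 189 ± 5.34 to 354 ± 13.8 CPM (log2 fold change 0.91, adjusted p = 3.13e-06). Postn (periostin), a matricellular protein that binds the proteinase Bmp1 which activates Lox, rose from 18.9 ± 4.87 to 86.0 ± 22.4 CPM (2.19, adjusted p = 6.23e-05). Bmp1 itself was called lower, at 305 ± 21.5 CPM in WT and 249 ± 8.68 CPM in AS (-0.29, adjusted p = 0.00621). Fbln5 (fibulin-5), a scaffold that tethers Loxl1 to elastic fibres, fell from 697 ± 34.5 to 366 ± 3.04 CPM (-0.93, adjusted p = 4.04e-06). Slc31a1, the copper importer of the plasma membrane, fell from 67.4 ± 1.95 to 46.4 ± 2.99 CPM (-0.54, adjusted p = 0.000173). The median log2 fold change of the 12 genes was -0.06, and Tll2 had too few counts to be tested.

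Lysine hydroxylation and glycosylation, which set what kind of cross-link a lysyl oxidase can start, had 4 of 9 tested genes higher and 1 lower. Plod2, the telopeptide lysyl hydroxylase, fell from 755 ± 56.6 to 520.5 ± 5.53 CPM (log2 fold change -0.54, adjusted p = 0.000266). Serpinh1, the collagen chaperone HSP47, rose from 1072 ± 47.95 to 1531 ± 21.03 CPM (0.51, adjusted p = 0.000225), and Colgalt1, which adds galactose to hydroxylysine, rose from 122 ± 13.4 to 185 ± 8.61 CPM (0.60, adjusted p = 0.000388). Plod3, a lysyl hydroxylase with glycosyltransferase activity, had a smaller rise (0.26, adjusted p = 0.00403) that was lost once the median of its chromosome was removed (0.067, adjusted p = 0.367). The median log2 fold change of the 9 genes was -0.03, and Colgalt2 had too few counts to be tested.

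**Figure D4:**
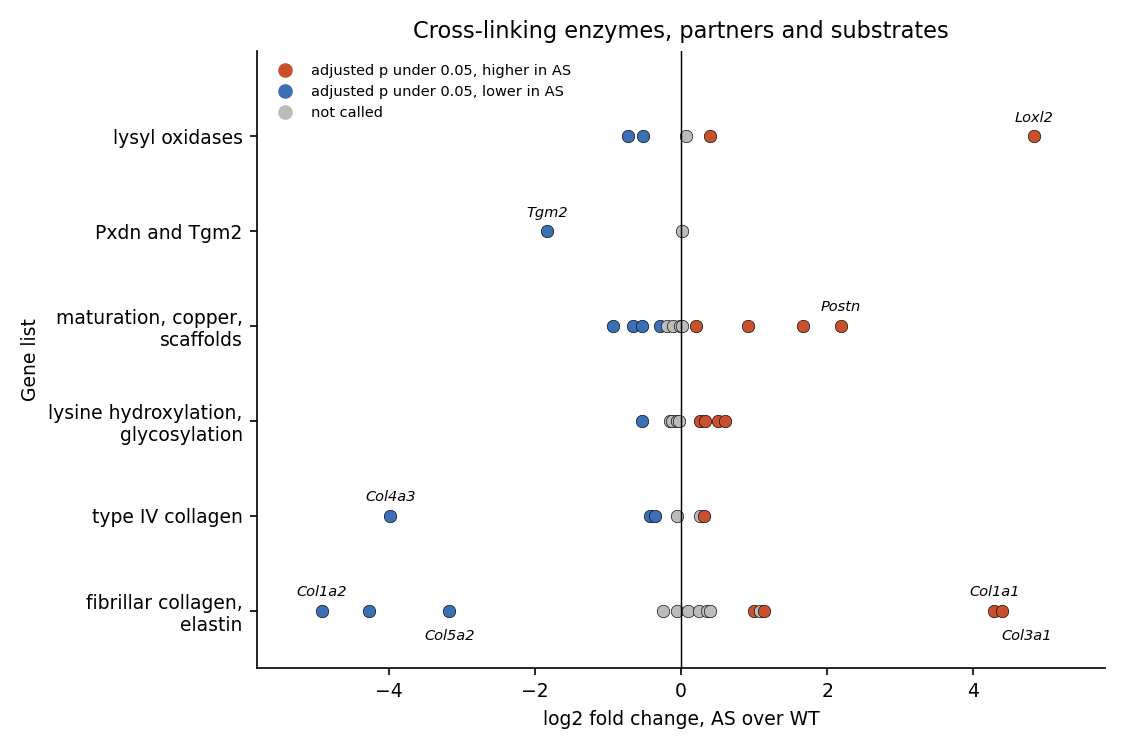
Log2 fold change of AS over WT for the tested genes of each list, with 1 point for each gene, coloured by direction where the adjusted p was under 0.05. Loxl2, Col1a1 and Col3a1 lie above 4, Col1a2 and Col4a3 lie near or below -4, and of the 6 lists drawn all but the pair of Pxdn and Tgm2 hold called genes on both sides of 0.

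Other genes of the transglutaminase family were near 0, whereas the heme peroxidase family held other expressed genes besides Pxdn. Of 9 other transglutaminase genes, 1 had enough counts to be tested, Tgm5, which was not called (log2 fold change -0.72, adjusted p = 0.595). The 9 genes summed to 0.433 to 0.555 CPM in WT and 0.254 to 0.720 CPM in AS, and Tgm7, F13b and Epb42 had no count in any sample. Among the other animal heme peroxidase genes, Ptgs1 and Ptgs2, the cyclooxygenases, had enough counts to be tested. Ptgs1 fell from 48.7 ± 7.01 to 10.7 ± 0.153 CPM (-2.18, adjusted p = 5.09e-07), and Ptgs2 was not called (-0.81, adjusted p = 0.163). WT replicate 1 set the Ptgs2 value, with 471 CPM against 150.4 and 152 CPM in the other WT samples and 212, 122 and 108 CPM in AS, and without it the log2 fold change was -0.042 (adjusted p = 0.902).

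Several of the 7 genes share annotated exonic sequence with a gene on the opposite strand, and the sources used here do not state whether counting used strand. Loxl2 overlapped the antisense gene Gm27177 over 301 bases, and the latter was listed at 0 in WT and at 0.0074 CPM in AS, so nearly no counts were assigned to it beside the 531 CPM of Loxl2. Loxl3 overlapped Htra2 over 535 bases, and Htra2 had 34.9 CPM in WT and 31.9 CPM in AS (log2 fold change -0.13, adjusted p = 0.449). Tgm2 overlapped Gm20412 over 633 bases, whose 3.26 CPM in WT and 0.862 CPM in AS moved by -1.92 beside the -1.83 of Tgm2, and reads of the 2 genes cannot be told apart without strand. It also overlapped Rprd1b over 370 bases (32.4 and 29.1 CPM). Lox overlapped AC161119.1 over 30 bases (4.17 and 2.19 CPM). Genes next to Loxl2 did not show changes of its size in the same direction. Among the 5 tested genes on each side, looked at after the values of Loxl2 were known, log2 fold changes ran from -3.96 to 0.78 with a median of -0.10, and the adjacent Slc25a37 and R3hcc1 were at 0.76 and 0.40.

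Likeness of profile was measured for the 3 genes with the largest differences, as the root mean square distance between log2 CPM values centred on their mean over the 6 samples, among 12911 other genes with a mean of at least 1 CPM. The distance picks genes with a similar difference between the lines and gives no independent evidence. Closest to Loxl2 were the transcript AI506816 (distance 0.102), Lrrc17 (0.163) and Stmn2 (0.250), which had log2 fold changes of 4.85, 4.99 and 5.49. The mean level of AI506816 was 4.52 CPM in WT and 131 CPM in AS. Closest to Tgm2 were Sh3bgrl2 (0.0987), Icam1 (0.0988) and Hebp2 (0.114), and Icam1, a leukocyte adhesion molecule, went from 212 to 55.1 CPM (log2 fold change -1.95, adjusted p = 7.64e-07). Among the genes closest to Lox were Igf2bp1 (0.0731) and Jph2 (0.0785), with log2 fold changes of -0.71 and -0.77.

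**Figure D5:**
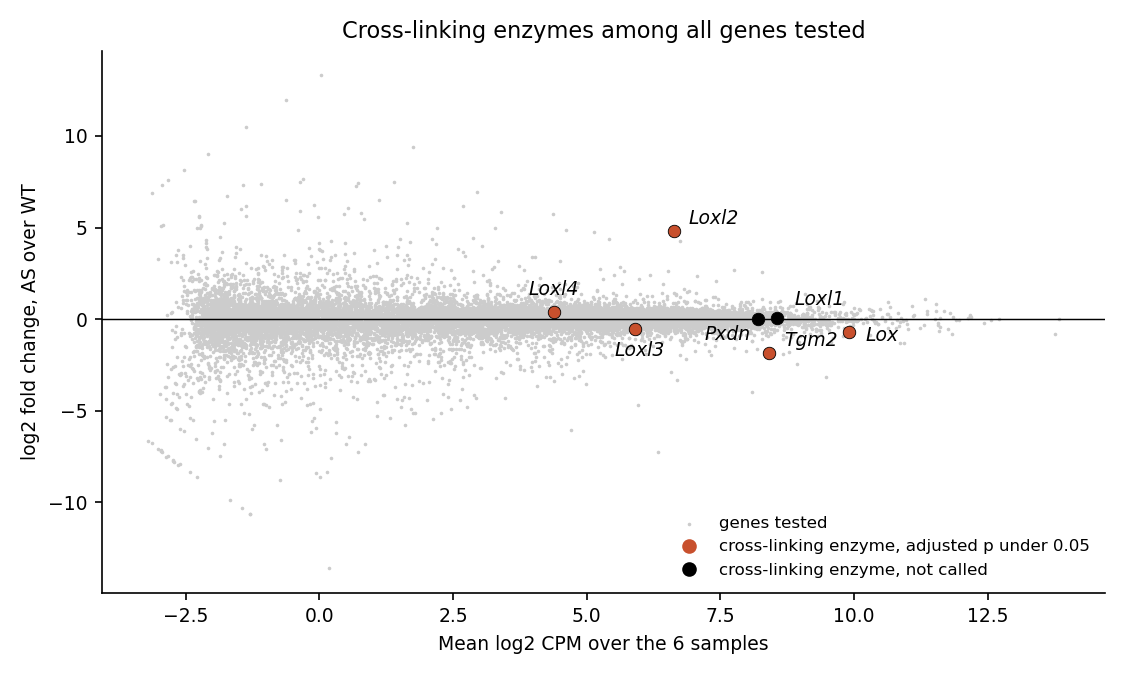
Log2 fold change of AS over WT against mean log2 CPM over the 6 samples for the 16263 genes tested, in grey, with the 7 cross-linking enzymes marked and coloured where the adjusted p was under 0.05. Loxl2 lies at 4.83, with 49 genes higher, and Loxl1 and Pxdn lie on the line at 0.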

How the data were processed

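RNA sequencing of 6 cell culture samples was analysed, 3 per genotype. Raw counts of reads for each gene, as whole numbers without normalization, were deposited by the authors, and the submitters' processing notes name FastQC, Trim Galore, STAR, edgeR and the build mm39. Their versions and the counting tool, strand setting and annotation release were not given in the sources used here. Libraries were made from mRNA with 15 PCR cycles and no molecular identifiers are mentioned. Groups were taken from the genotype labels. Of 57132 identifiers, 51880 matched GENCODE M21 (GRCm38), which was used for symbols, chromosomes, gene order, transcript lengths and the coding stretches (longest reading frame), and no coordinates are given. Identifiers without a symbol held 0.363% of the counts, and 28476 genes had no count.

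The counts were tested with edgeR 4.0.16 in R 4.3.3. After filterByExpr (at least 10 counts, total at least 15) and TMM scaling, the two-sided quasi-likelihood test was run on genotype alone. P-values were adjusted over all tested genes by Benjamini-Hochberg, with a threshold of 0.05. The SE was approximated from the log2 fold change and its F statistic. The step was tested on simulated data, whose outcome is not reported here, so the SE and the 95% intervals remain approximate. CPM use TMM library sizes, and profiles used log2 CPM with a prior count of 2. Shares and ratios were compared by the exact permutation test. Alternatives were limma 3.58.1 with voom (the study's method), DESeq2 1.42.0, its size factors, library size only, no filter, a mean of at least 1 CPM, a replicate block, removal of chromosome medians, other transcript lengths or denominators, and each sample left out.

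The genes and lists were chosen with earlier results of these data known. Named were the 7 enzymes, all type IV collagen chains, up to 4 genes of each other list by smallest adjusted p, genes without a count, up to 2 markers of each cell type by level plus defining podocyte markers, overlapping genes and the nearest profiles, and some items that this rule names are not reported here. Nphs1, Wt1, Bmp1, the lysyl oxidase sum without single samples and the neighbours of Loxl2 were added after their values were seen. Counting error was small at this depth for the 7 enzymes, but not for markers with few reads such as Nphs1, Dcn and Thy1. P-values cover the spread between samples only.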

Additional observations from a re-analysis of the deposited data

How the results depend on the processing

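Over 14 alternatives, 84 of 98 log2 fold changes of the 7 enzymes kept their direction and side of the threshold, and Lox, Loxl2, Loxl3 and Tgm2 kept their calls in all 14. The count of enzymes called higher, 2 as reported, was 1 with a mean of at least 1 CPM and 1 to 2 with 1 sample left out. The count called lower was 3 throughout. The 6 lost calls were those of Loxl4: besides the 2 values given in the report, 0.38 with a mean of at least 1 CPM (adjusted p = 0.0503) and, without WT replicate 3, AS replicate 2 or AS replicate 3, 0.44, 0.33 and 0.34 (adjusted p = 0.0622, 0.136 and 0.147). Without WT replicate 1 the count stayed at 2 because Loxl1 (0.19) passed while Loxl4 did not. The sign changed for Loxl1 without WT replicate 2 (-0.022). For Pxdn it changed with DESeq2 size factors (-0.00061), in DESeq2 (-6e-04) and for 4 of the 6 samples left out. Over all 6 samples left out in turn, the value of Pxdn ran from -0.057 to 0.13. Among 30 other named genes, 399 of 419 values kept direction and call. Reversed were Col4a1 without WT replicate 1 (0.11, range -0.17 to 0.11) and Col4a2 after removal of the chromosome median (-0.045). Ptgs2 was called lower without a filter (-0.81, adjusted p = 1.62e-05) and with the replicate block (-0.65, adjusted p = 0.00492), but its value was -0.042 without WT replicate 1 (range -1.17 to -0.042). Col4a2 was called higher without a filter (0.26, adjusted p = 0.00586) and with the replicate block (0.28, adjusted p = 0.0243), which also ended the call of Col4a6 (-0.36, adjusted p = 0.0506). The share difference of Loxl1, 1.27 percentage points, ran from -1.04 to 5.34 with 1 sample left out (-0.493 without WT replicate 3). Its log2 ratio to Col4a1 plus Col4a2 ran from -0.0638 to 0.0888 (0.0375 without AS replicate 1) and was 0.174 against all 6 chains. The ratio of the summed lysyl oxidase level, an alternative chosen after seeing the data, ran from 0.937 to 1.03 with 1 sample left out. The ratio of Pxdn was 0.112 against all 6 chains, and that of Loxl4 ran from -0.0020 (without WT replicate 1) to 0.483 with 1 sample left out. The cause of these changes was not tested.

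Genes called over the whole table numbered 5120 to 6776 with 1 sample left out, against 6517. Scaling by library size only moved the median of all genes by 0.027 on the log2 scale and gave 3590 higher and 2900 lower calls, against 3324 and 3193. With the replicate number as a replicate block, 7066 genes were called, and 2 of the enzymes were higher and 3 lower, as without it. The numbers are not known to pair the samples. Deviations of equally numbered samples correlated at 0.147, 0.0939 and 0.0526, and those of differently numbered samples at -0.130 to 0.0571. Each AS replicate correlated best with the WT replicate of its own number, while WT replicate 3 correlated best with AS replicate 2. Whether samples of the same number share an effect was not tested. Depth limited none of the 7 enzymes, each with at least 752 reads per sample. Most other transglutaminases and heme peroxidases had too few reads to be tested. The number of samples limits small differences such as that of Loxl4.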
